A study of Mus musculus with 22 samples.

Results

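The PDZ-LIM genes encode a family of adaptor proteins of the actin cytoskeleton, and Pdlim1 is the member from which the family was taken up here. The members were 7 genes of 21884 protein-coding genes, namely Pdlim1, Pdlim2, Pdlim3, Pdlim4, Pdlim5, Pdlim7 and Ldb3. They were grouped after Pdlim1 had been noted for holding the region with the smallest p in mice with long-term obesity, so every value of Pdlim1 in that contrast is given here as a description with no test. Each locus was the gene span of the GRCm38 annotation extended by 20 kb on each side, and the 7 loci met 31 of the 104657 regions formed by merging the accessibility peaks of all libraries.

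Accessible chromatin had been profiled by ATAC-seq, in which a transposase cuts and tags open DNA, in biotin-labelled adipocyte nuclei from epididymal fat. All 22 libraries came from male mice that carried AdipoERCre, a Cre active in adipocytes after tamoxifen, together with the NuTRAP reporter that labels the nuclear envelope, and all mice had been given tamoxifen 2 times. The short arm held 4 groups of 3 mice. C ate low-fat chow until sampling at an age of 18 weeks, and H, of the same age, spent its final 12 weeks on high-fat diet. HC went through those 12 weeks and a further 8 weeks back on chow, and its control CC_s ate chow throughout, both being sampled at 26 weeks. The long arm held HH (3 mice, high-fat diet for 25 weeks) with its control CC_l (2 mice), sampled at 31 weeks. It also held HHC (3 mice, the same 25 weeks followed by 8 weeks of chow) with its control CCC (2 mice), sampled at 39 weeks. Each library was 1 animal. The chow of the last 8 weeks was a different one, also for the controls CC_s and CCC, and the labels' sample codes start differently in the short and the long arm, without saying what that marks.

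Proteins of the family carry an N-terminal PDZ domain, which in most members binds alpha-actinin and so places them on actin filaments and stress fibres. Pdlim1, Pdlim2, Pdlim3 and Pdlim4 form the ALP group with a single C-terminal LIM domain, and Pdlim5, Pdlim7 and Ldb3 form the Enigma group with several LIM domains, which bind protein kinases. Fat cells that enlarge in obesity remodel their cortical actin, and the family is best known from muscle, where Pdlim3 and Ldb3 lie at the Z-line.

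The peaks had been called in each library separately, and a library held 40530 to 60520 of them. The files do not give the sequencing depth of a library. Signal in this text is the summed peak signal of a region or locus on a log2 scale, after libraries were put on a common scale by rank; a region with no peak, or with one too weak to rank in every library, sits at the floor of 14.01. A difference was called when its adjusted p in limma was under 0.05 and its size was over 1 on the log2 scale. All 12 adipocyte markers on the list had a promoter peak in all 22 libraries. Their summed promoter signal was 4133 to 6643 ppm of all peak signal in C, H, CC_s and CC_l. Its range was 1235 to 6355 ppm in HC, 2031 to 5252 in HH, 2590 to 6542 in CCC and 853 to 6384 in HHC. Of 12 striated muscle markers, 6 (Ckm, Myh1, Myh2, Neb, Myh6 and Myh7) had no promoter peak in any library. Another 2 had one in all 22 libraries. Each library had 2 to 4 of the 12, with sums of 56.7 to 98.3 ppm. The ratio of a library's median to lowest peak maximum, a measure of how far peaks rise above the weakest one, was 4.7 to 6.4 in H and 6.82 to 8.92 in C, and it was lowest in HC replicate 3 (2.43) and HHC replicate 3 (2.25). Macrophage markers with a promoter peak numbered 4 to 6 of 12 in H and 3 to 5 in C, with summed promoter signals of 102 to 182 ppm of all peak signal in H and 203 to 368 ppm in C. Fcgr1 was at 0 throughout. Mesothelial markers numbered 0 to 1 of 12 in H and 2 to 5 in C, with summed signals of 0 to 6.71 and 13.9 to 59.0 ppm, while Krt18, Upk1b, Gpm6a and Bnc1 were at 0 in all libraries. In the long arm mesothelial markers numbered 0 to 2 in HH, 3 in CC_l, 2 to 8 in HHC and 1 to 4 in CCC. Smooth muscle and pericyte markers numbered 7 to 9 of 12 in H and 8 in C, with summed signals of 254 to 390 and 395 to 561 ppm and Rgs5 at 0. Endothelial and stromal markers numbered 4 to 12 of 12 in HH and 5 in CC_l, with summed signals of 59.3 to 240.0 and 60.3 to 108 ppm, and 4 to 9 in all other groups. The part of these differences in the results below was not tested.

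Pdlim1 lies on the minus strand of chromosome 19 from 40221173 to 40271842 and starts at 40271616. Its locus met 3 merged regions. Region 1, chr19:40220851-40259435, covered most of the gene body from 12.2 to 50.8 kb downstream of the start and held no other coding gene. Region 2, chr19:40261231-40277892, held the promoter and the first part of the gene. Region 3 lay upstream and ran far beyond the locus, so its signal is not that of Pdlim1 alone and is not described here. Within regions 1 and 2, peak summits recurred at 6 places, 5 of them intronic and 1 at the start site. Of the intronic sites, site 2 lay under a peak in all 22 libraries, and sites 1, 3 and 5 in 6, 6 and 5 of 6 obese libraries. Sites 1 and 3 also lay under one in 5 and 6 of 10 control libraries. The sequences below are of these 4 sites and of the promoters of Pdlim1 and, for contrast, Pdlim3, the member whose promoter was rarely open. They are read on the gene's strand, the sites as 151 bases of GRCm38 centred on the summit and the promoters as the RefSeq entries of build GRCm38.p6, and capitals mark matches to the motifs named after them.
Intronic site 1 (chr19:40225510-40225660): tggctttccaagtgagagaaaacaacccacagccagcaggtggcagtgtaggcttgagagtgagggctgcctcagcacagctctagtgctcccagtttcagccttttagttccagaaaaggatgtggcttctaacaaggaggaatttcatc
Intronic site 2 (chr19:40231457-40231607): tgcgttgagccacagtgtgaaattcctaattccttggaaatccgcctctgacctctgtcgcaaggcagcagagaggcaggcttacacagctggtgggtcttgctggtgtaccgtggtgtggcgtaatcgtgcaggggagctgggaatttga
Intronic site 3 (chr19:40240972-40241122): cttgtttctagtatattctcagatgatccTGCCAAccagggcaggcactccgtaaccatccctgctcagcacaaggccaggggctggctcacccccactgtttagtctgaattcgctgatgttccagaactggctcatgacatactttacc
Intronic site 5 (chr19:40253842-40253992): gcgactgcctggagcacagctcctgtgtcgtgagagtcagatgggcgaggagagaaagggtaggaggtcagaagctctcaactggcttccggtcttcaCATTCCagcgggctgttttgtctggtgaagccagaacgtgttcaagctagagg
Pdlim1 promoter (chr19:40271567-40271866): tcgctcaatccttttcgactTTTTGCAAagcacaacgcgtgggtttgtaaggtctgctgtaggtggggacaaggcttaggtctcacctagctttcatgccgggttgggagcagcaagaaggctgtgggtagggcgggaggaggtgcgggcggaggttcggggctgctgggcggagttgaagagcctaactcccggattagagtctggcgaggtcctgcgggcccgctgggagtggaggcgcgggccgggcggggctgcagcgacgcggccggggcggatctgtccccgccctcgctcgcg
Pdlim3 promoter (chr8:45885237-45885536): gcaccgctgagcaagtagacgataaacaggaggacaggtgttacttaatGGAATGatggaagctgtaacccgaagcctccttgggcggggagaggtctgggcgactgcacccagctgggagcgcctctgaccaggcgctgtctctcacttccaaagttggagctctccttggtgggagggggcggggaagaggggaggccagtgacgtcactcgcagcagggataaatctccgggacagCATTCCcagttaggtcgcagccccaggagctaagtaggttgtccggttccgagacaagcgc

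Of 7 motifs searched on both strands, the AP-1 motif TGANTCA, the C/EBP motif TTGCNNAA, the EBF motif CCCNNGGGA, the TEAD motif GGAATG, the NFI half-site TTGGCA, the CArG box and the glucocorticoid receptor motif, sites 1, 2 and 4 held none. Site 3 held 1 NFI half-site, a motif found in 18.8% of 43158 summit windows of the same length. Site 5 held 1 TEAD match, found in 10.3% of those windows. The Pdlim1 promoter held 1 C/EBP match, against 10.8% of 32851 promoters of the same table, and the Pdlim3 promoter held 2 TEAD matches, against 14.7% of promoters with any. These are matches of letters and not sites of binding. RefSeq promoters were at hand for 6 of the 7 members, all but Pdlim2. The Pdlim1 promoter had 65.7% G and C and 27 CpG dinucleotides in 300 bases, against medians of 52.7% and 7 over all promoters; the Pdlim3 promoter had 59.7% and 15, and that of Ldb3 58.0% and 6.

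In short-term obesity the Pdlim1 gene body was far more accessible than in lean mice of the same age. Signal in region 1 was 14.14, 14.01 and 15.32 in the 3 C libraries and 17.64, 18.11 and 17.32 in the 3 H libraries. Every H library lay above every C library, with means of 17.69 ± 0.40 (SD, n = 3) and 14.49 ± 0.72 (SD, n = 3). The difference was 3.20 (SE 0.37) and was called (adjusted p = 0.0046, limma). The call was lost, at an adjusted p of 0.0503 and a difference of 2.96, when C replicate 2 was left out. Peaks covered 1.86 to 7.47 kb of the region in C and 17.2 to 24.7 kb in H, in 1 to 2 and 4 to 5 separate peaks. The highest point of those peaks differed less, from 37 to 89 in C and 87 to 115 in H, and these ranges overlap. With the maximum in place of the summed signal the difference was 1.65 (SE 0.26, adjusted p = 0.0060, limma).

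The promoter region of Pdlim1 moved the same way. Signal in region 2 was 14.20, 14.66 and 15.10 in C and 16.68, 16.92 and 15.69 in H, again without overlap, a difference of 1.78 (SE 0.37, adjusted p = 0.020, limma) that was called. Its covered length was 1.67 to 3.82 kb in C and 5.51 to 10.95 kb in H, while its maximum was 32 to 82 in C and 59 to 70 in H. The covered lengths did not overlap between H and C, and the heights, which are not on the common scale, did. Leaving out C replicate 1, C replicate 2, H replicate 1 or H replicate 2 in turn gave adjusted p of 0.078, 0.096, 0.088 and 0.086, each without the call. For the maximum, put on the common scale, the difference was 0.98 (SE 0.27, adjusted p = 0.040, limma), under the size for a call.

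In long-term obesity, the contrast that chose Pdlim1, the values were of the same order. Region 1 stood at 17.67, 17.29 and 17.69 in HH and at 14.58 and 14.90 in CC_l, which is 2.81 higher on average. Peaks covered 12.6 to 16.7 kb of it in HH and 1.34 to 4.25 kb in CC_l. Region 2 stood at 16.39, 16.44 and 16.26 in HH and at 15.01 and 14.95 in CC_l, 1.39 higher. Every HH library lay above both CC_l libraries in both regions.

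After weight loss the gene body signal overlapped that of the chow controls of the same age, and no difference was called. Region 1 was 16.85, 17.59 and 16.19 in HC against 16.61, 15.55 and 15.94 in CC_s, and these overlap. The difference of 0.84 (SE 0.40) was not called (adjusted p = 0.45, limma). It was 1.19 (adjusted p = 0.16, limma) without HC replicate 3, the library with the weakest peaks of the arm, 0.49 without HC replicate 2 and 0.29 for the maximum. In the long arm region 1 was 16.70, 17.18 and 16.28 in HHC against 16.32 and 15.52 in CCC, a difference of 0.80 (SE 0.41, adjusted p = 0.80, limma). Here the maximum gave the opposite sign, at -0.16 (SE 0.40). Leaving out CCC replicate 2 gave 0.41, and leaving out HHC replicate 3 gave 1.02 (adjusted p = 0.48, limma).

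The promoter region separated the weight loss groups from their controls in every library, although neither difference was called. Region 2 was 16.06, 16.40 and 15.82 in HC and 15.58, 15.11 and 14.86 in CC_s, and the means differed by 0.91 (SE 0.34, adjusted p = 0.35, limma). It was 16.06, 16.24 and 16.59 in HHC and 15.57 and 15.21 in CCC, a difference of 0.91 (SE 0.36, adjusted p = 0.80, limma). Complete separation in this direction occurred in 5.39% of 29699 regions for HC and CC_s and in 7.42% of 32736 regions for HHC and CCC. With the maximum the long-arm difference was -0.39. The covered lengths overlapped in both pairs, at 1.80 to 8.84 kb in HC and 3.11 to 3.65 kb in CC_s, and at 4.78 to 9.78 kb in HHC and 2.03 to 6.80 kb in CCC.

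Ordered by mean, region 1 ran from H (17.69) and HH (17.55) through HC (16.88), HHC (16.72), CC_s (16.03) and CCC (15.92) to CC_l (14.74) and C (14.49). Neighbours in this order overlapped in their ranges at every step but that from CCC to CC_l. Within each arm the older chow control, which had been moved to the second chow, had the higher mean. CC_s exceeded C by 1.54 (SE 0.41, adjusted p = 0.48, limma), a comparison added after the data were seen. It passed the looser rule of an unadjusted p under 0.01 with a difference over 1, as 0.615% of 30390 regions did. CCC exceeded CC_l by 1.18, given without a test because CC_l had served to choose the gene. Age, time and chow cannot be told apart in these control pairs. The excess of H over C was larger than that of HC over CC_s by 2.35 (SE 0.60, adjusted p = 0.15 over 36781 regions, limma), also tested after the data were seen, so a smaller difference after weight loss was not shown. In this fit 0.228% of regions were called. Pdlim1 region 1 and a flank region of Pdlim2, 2 of the 24 member regions tested, passed the looser rule, against 2.25% of regions.

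**Figure D1:**
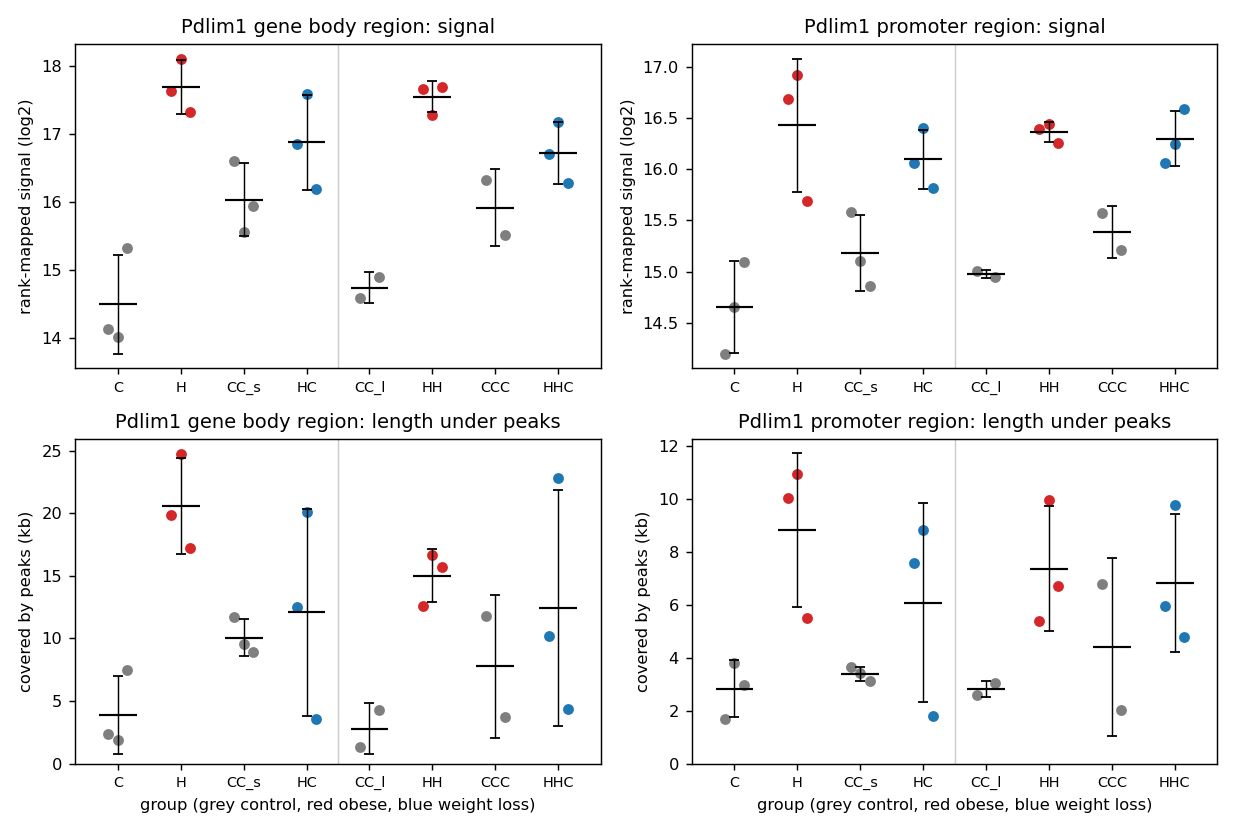
Signal on the log2 scale (top) and length under peaks in kb (bottom) of the Pdlim1 gene body region and promoter region in each library of the 8 groups, with points for libraries, bars for means and whiskers for SD. H libraries sit between 17.32 and 18.11 in the gene body and C libraries between 14.01 and 15.32; HC and HHC libraries sit between 16.19 and 17.59, and the later controls CC_s and CCC stand above C and CC_l.

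The recurring summits show where along the gene those peaks lay. The start site was covered by a peak in all 22 libraries, as was site 2, 40.1 kb into the gene. Site 1, 46.0 kb into the gene, was covered in 3 of 3 H and 3 of 3 HH libraries, in 0 of 3 C and 0 of 2 CC_l libraries, but in 3 of 3 CC_s and 2 of 2 CCC libraries. After weight loss it was covered in 1 of 3 HC and 0 of 3 HHC libraries. Site 1 was thus under a peak in 6 of 6 obese, 1 of 6 weight loss and 5 of 10 control libraries, and the controls that had it were all from the 26-week and 39-week groups.

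Site 5, 17.7 kb into the gene, had another pattern. Peaks covered it in 2 of 3 H, 3 of 3 HH, 2 of 3 HC and 2 of 3 HHC libraries and in none of the 10 control libraries of the 4 control groups. Its peaks were low, with maxima of 37 in H, 26 to 51 in HH, 42 to 43 in HC and 17 to 33 in HHC. Site 3, 30.6 kb into the gene, was covered in 6 of 6 obese, 5 of 6 weight loss and 6 of 10 control libraries, and site 4, at 24.1 kb, in 3, 3 and 2 of them. A threshold had been applied to each library before peaks were listed, so a site without a peak may still hold signal under that threshold. Site 5 was 1 of 64 recurring sites in the member loci, and it was not alone in lacking control peaks. A site 105.5 kb into Pdlim5 lay under peaks in 3 of 6 obese, 2 of 6 weight loss and 0 of 10 control libraries. A site upstream of Pdlim3 did so in 2, 2 and 0 of them. The share of all sites with such a pattern was not counted, and the HH libraries in these counts had served to choose Pdlim1. The sites were defined on these same libraries and are a description.

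**Figure D2:**
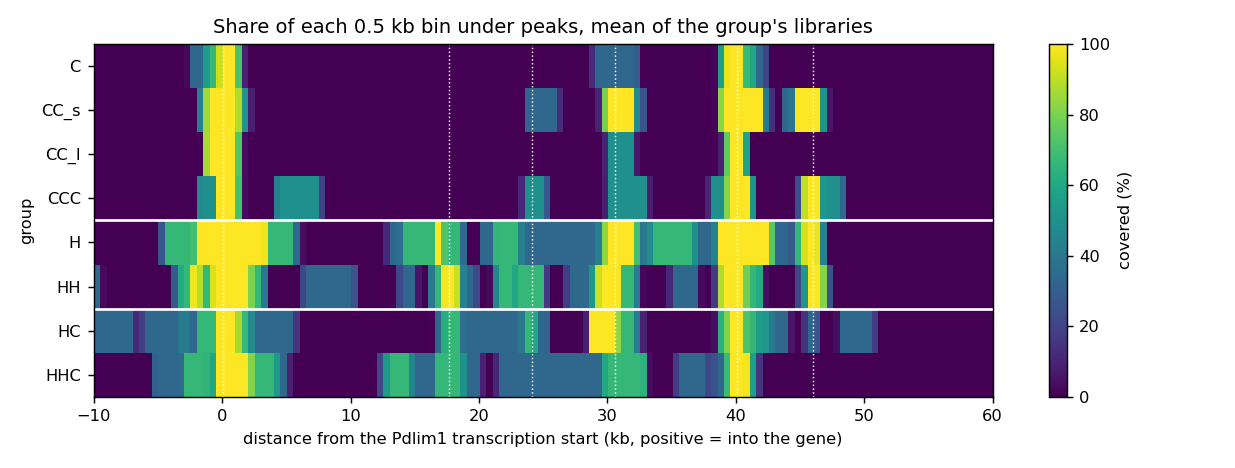
Mean share of each 0.5 kb bin that lay under peaks, in percent by colour, along the Pdlim1 gene at its distance in kb from the transcription start, with 1 row per group and dotted lines at the recurring summits. All groups are covered at the start and at 40.1 kb, the obese and weight loss groups also around 17.7 kb, and 46.0 kb is covered in H, HH, CC_s and CCC.

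Over all members, 3 of the 23 regions tested were called in H against C, and all 3 were higher, namely both Pdlim1 regions and region 8 of Pdlim5. In that comparison 8.28% of 30840 regions were called, and by the looser rule 8.52%, so 3 of 23 is not far from the background. The median difference over the 23 regions was 0.48, against -0.05 over all regions tested. Without C replicate 2 the count was 0 of the members and 147 of 34192 regions in all, and it was 1 without C replicate 1, H replicate 1 or H replicate 2. Regions of the 7 loci in which all H libraries exceeded all C libraries numbered 7, against 19.4% of all regions tested, and those in which all were lower numbered 2, against 21.3%. In HC against CC_s these counts were 2 and 2 (5.39% and 13.8% of all regions), and in HHC against CCC 2 and 4 (7.42% and 16.6%). In HH against CC_l, with the Pdlim1 regions set aside, they were 5 and 3 of 21 (12.2% and 20.4%). No region of the members, and no region at all, was called by limma in the other pairs. At an unadjusted p under 0.05 they were 3 of 20 in HC against CC_s, 4 of 21 in HH against CC_l with the Pdlim1 regions set aside, and 3 of 23 in HHC against CCC, against 12.0%, 13.7% and 6.14% of all regions. By the looser rule they were 0, 0 and 1, against 2.54%, 2.68% and 0.706% of all regions. Of the counts at p under 0.05, 1 in HH against CC_l (region 12 of Pdlim5) and 1 in HHC against CCC (region 10 of Pdlim5, also the 1 by the looser rule) were tested only because 1 group was above the floor, so they support nothing. These 2 and a region of Pdlim3, above the floor in HHC and not in CCC, are also among the regions without overlap.

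**Figure D3:**
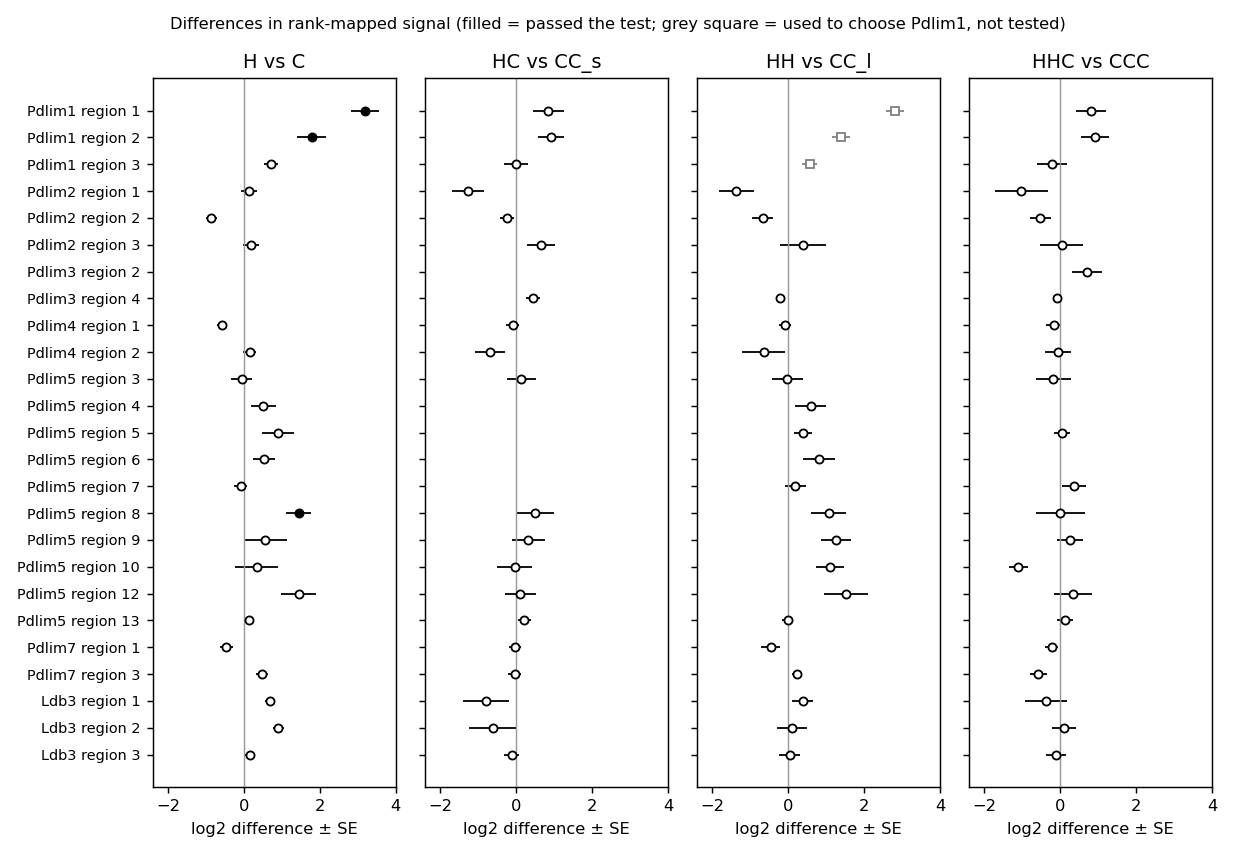
Log2 differences in signal with their SE for each tested region of the 7 loci in the 4 pairs, with filled circles for calls and grey squares for the values that chose Pdlim1. The filled circles are at 3.20, 1.78 and 1.44 in H against C, and no other pair has one.

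Among the other ALP members, signal at Pdlim2 was lower in H than in C, by less than the size set for a call in the shared promoter region and by more than that on the gene span alone (-2.33, SE 0.34, adjusted p = 0.020, limma). Pdlim2, whose protein is known to carry transcription factors of inflammation such as RelA to degradation, has a compact gene on chromosome 14 and shares its promoter region, chr14:70148629-70186502, with Ccar2, Sorbs3 and 9930012K11Rik. Signal there was 18.01, 18.14 and 18.15 in C and 17.42, 17.30 and 17.01 in H, lower without overlap by 0.86 (SE 0.14, adjusted p = 0.0099, limma), under the size for a call. Without C replicate 2 the adjusted p was 0.067 (limma). The difference depended on how peaks were taken: it was -1.40 (adjusted p = 0.015, limma) and called among the 30000 strongest peaks, and -0.42 (adjusted p = 0.16, limma) for the maximum. With 50% of the region required under peaks, all 3 C libraries and no H library remained above the floor, which allows no test. Its covered length was 25.4 to 29.4 kb in C and 10.99 to 16.5 kb in H. Peaks covered 13.2, 14.7 and 10.9 kb of it in HH against 25.1 and 27.6 kb in CC_l, while the signal, 17.93, 17.32 and 17.08 against 18.32 and 17.92, overlapped (difference -0.68, SE 0.28, adjusted p = 0.37, limma). In the weight loss pairs the differences were -0.23 and -0.53, with adjusted p of 0.64 and 0.80 (limma). Within 2 kb of the Pdlim2 start sites, signal was 16.21, 16.57 and 16.93 in HHC and 17.98 and 17.67 in CCC. This difference of -1.25 had an unadjusted p of 0.014 (limma) and was not called, and that in HC against CC_s was -0.23.

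Pdlim4, which binds alpha-actinin and acts in the turnover of actin filaments, was lower in H at its promoter. Signal within 2 kb of its start sites was 18.03, 17.89 and 16.62 in C and 15.33, 14.30 and 15.39 in H, where 14.30 is the floor of this measure. The difference of -2.51 (SE 0.47) missed the adjusted threshold (adjusted p = 0.056, limma). The promoter region as a whole, chr11:54050217-54079927, was 17.99 to 18.17 in C and 17.28 to 17.61 in H, lower by 0.57 (SE 0.13, adjusted p = 0.024, limma). Promoter signal was 17.12 to 17.53 in CC_s and 14.30 to 16.56 in HC, a difference of -1.67 (SE 0.56, adjusted p = 0.77, limma) that was -1.003 without HC replicate 3, the library at the floor. HH and CC_l overlapped at 15.43 to 15.88 and 15.58 to 15.95.

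Pdlim3, a muscle Z-line protein, had almost no accessible chromatin in these adipocyte nuclei. A peak at its promoter, whose sequence is given above, was listed in 7 of 22 libraries, 3 of them HHC and none C, H or CCC. Its maxima were 16 to 30. The most frequent peak of the locus lay in the flank, 48.4 to 51.6 kb downstream of the start, in the gene Ccdc110. It was present in 14 libraries, 3 of 3 C and 0 of 3 H, 2 of 2 CC_l and 1 of 3 HH. The others were 2 of 3 CC_s, 3 of 3 HC, 2 of 2 CCC and 1 of 3 HHC. This region was not tested in H against C, since too few of its peaks were strong enough to lie above the floor. The share of all regions with such a pattern was not counted. The H libraries had no peak anywhere in the Pdlim3 locus, and the share of the locus under peaks was 0 to 7.97% over all libraries.

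In the Enigma group Pdlim5, a scaffold for protein kinase C, has the longest gene, 156.1 kb on chromosome 3, and 13 regions. Its promoter region was covered in all libraries at 17.40 to 17.99 with no difference between groups beyond 0.22 in any pair (adjusted p from 0.48 to 0.97, limma). Differences lay in the introns. Region 8, chr3:142289207-142297739, 98.0 to 106.5 kb into the gene, was 14.25, 14.27 and 14.17 in C and 16.15, 15.89 and 14.96 in H, without overlap. The difference of 1.44 (SE 0.33, adjusted p = 0.025, limma) was called, but was 0.15 (adjusted p = 0.69, limma) for the maximum and 0.54 (adjusted p = 0.24, limma) among the 30000 strongest peaks of each library. Leaving out any single replicate but H replicate 3 lost the call, with adjusted p of 0.079 to 0.11 (limma). Region 8 was 14.40, 15.15 and 15.90 in HH and 14.01 and 14.16 in CC_l (difference 1.06, SE 0.47, adjusted p = 0.40, limma, and 0.69 without HH replicate 3).

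Region 12 of Pdlim5, chr3:142366875-142380934, differed by a like amount without passing the test. It was 14.09, 14.67 and 15.95 in C and 15.91, 16.45 and 16.66 in H, where 1 H library lay below 1 C library (difference 1.44, SE 0.46, adjusted p = 0.064, limma). Both CC_l libraries were at the floor there, and HH had 14.77, 15.20 and 16.61. In region 10, chr3:142327107-142350495, all 3 HHC libraries were at the floor of 14.01, with 15.18 and 15.06 in CCC. Since it passed the filter on low values through CCC alone, these values are given without a test.

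Pdlim7, or Enigma, which is known to bind the insulin receptor and protein kinase C, has a crowded locus with Dbn1, Dok3 and Ddx41. Its promoter signal was 16.82, 16.72 and 17.01 in C and 17.48, 17.76 and 17.75 in H, higher without overlap by 0.81 (SE 0.17, adjusted p = 0.071, limma). It was 17.86, 17.74 and 18.02 in HH and 16.74 and 17.11 in CC_l, higher without overlap by 0.95 (SE 0.26, adjusted p = 0.49, limma). After weight loss the direction was the other one in the long arm, at 16.89, 16.98 and 17.01 in HHC against 17.68 and 17.58 in CCC (difference -0.67, SE 0.29, adjusted p = 0.92, limma), and HC and CC_s differed by 0.11. The share of all promoters that separate in these pairs was not counted. Among all regions, 19.4% separated upward in H against C, 12.2% upward in HH against CC_l and 16.6% downward in HHC against CCC.

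Ldb3, also called Cypher or ZASP and known from the Z-discs of heart and skeletal muscle, had 22.2 to 88.1% of its locus under peaks. Opn4 shares its promoter region, and Mmrn2, Bmpr1a and 9230112D13Rik share its downstream region. Region 2, chr14:34526721-34538404, at the 3' end of the gene, was 16.13, 16.48 and 16.30 in C and 17.31, 17.12 and 17.21 in H, higher without overlap by 0.91 (SE 0.15, adjusted p = 0.011, limma) and under the size for a call. It was 16.01, 16.52 and 17.33 in HH and 16.35 and 16.71 in CC_l, a difference of 0.09. The promoter region of Ldb3 was within 19.47 to 19.86 in all C and H libraries.

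**Figure D4:**
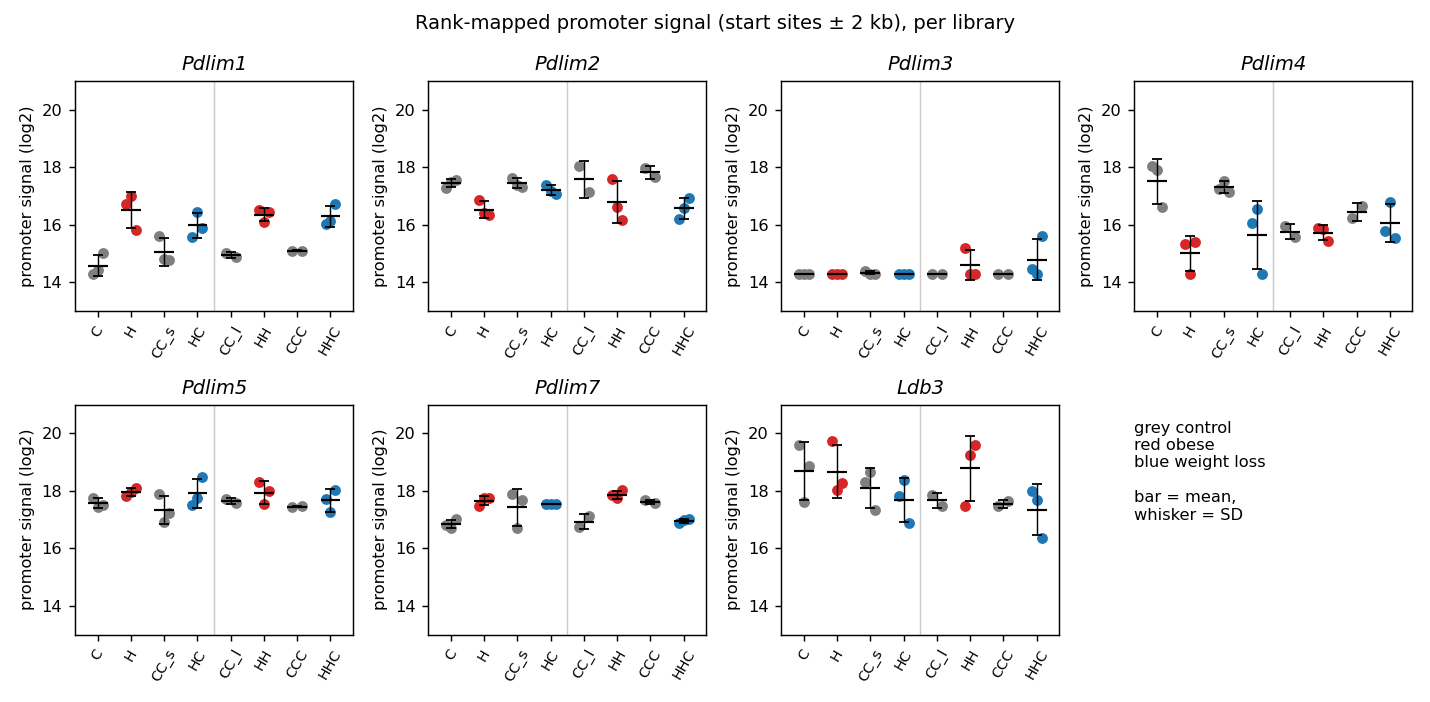
Promoter signal on the log2 scale (start sites ± 2 kb) of the 7 genes in each library, with points for libraries, bars for means and whiskers for SD. Pdlim1 is higher in every H, HH and HHC library than in its controls but overlaps them in HC (15.58 to 16.45 against 14.76 to 15.62), Pdlim4 is lower in H (14.30 to 15.39) than in C (16.62 to 18.03), and Pdlim3 is at or near the floor of 14.30 in all libraries but 1 of HH (15.20) and 1 of HHC (15.61).

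For promoter signal, no member was called in any pair by limma, with 4 of 6 members at an unadjusted p under 0.05 in H against C, 2 of 6 in HC against CC_s, 1 of 5 in HH against CC_l with Pdlim1 set aside and 2 of 7 in HHC against CCC. Of all promoters 21.1%, 6.05%, 7.41% and 4.24% were at that p. The called share of all promoters was 2.03%, 0.0868%, 0.0845% and 0% in the same order. By the looser rule Pdlim1 (1.94, SE 0.35, adjusted p = 0.051, limma) and Pdlim4 passed in H against C, where 4.04% of 12671 promoters did. No tested member passed it in HC against CC_s or, with Pdlim1 set aside, in HH against CC_l, where 1.37% and 1.8% of promoters did. Pdlim1 also passed in HHC against CCC (1.19, SE 0.31, adjusted p = 0.92, limma), where 0.859% of 13148 did. There the promoter values were 16.03, 16.12 and 16.71 in HHC and 15.08 and 15.10 in CCC. With the maximum the difference was -0.44.

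The share of a locus under peaks was higher in every H library than in C at Pdlim1, and lower at Pdlim2, Pdlim3 and Pdlim4. None of these differences passed the adjusted threshold, and the share of all loci that separate in this pair was not counted. Pdlim4 was covered to 40.1 to 51.1% in C and 26.7 to 30.9% in H, and Pdlim3 to 1.27 to 3.93% in C and 0% in H. The Pdlim1 locus was covered to 12.1 ± 5.26% (SD, n = 3) in C and 42.4 ± 7.78% (SD, n = 3) in H, and, in the contrast that chose it, to 10.7 ± 3.33% (SD, n = 2) in CC_l and 33.3 ± 8.81% (SD, n = 3) in HH. The Pdlim2 locus was covered to 59.4 ± 7.38% in C and 36.6 ± 4.60% in H, and to 55.9 ± 8.34% in CC_l and 31.9 ± 3.68% in HH. The H and C differences were 30.2 percentage points (SE 5.36, adjusted p = 0.051, limma) for Pdlim1, -22.9 (SE 5.71, adjusted p = 0.093, limma) for Pdlim2 and -17.2 (SE 4.86, adjusted p = 0.12, limma) for Pdlim4. None was called, and 0.812% of 17250 loci were. These 3 members had p under 0.01, as had 7.67% of loci. In HH the Pdlim2 difference was -24.1 points (SE 8.82, adjusted p = 0.66, limma), and in the weight loss pairs the shares of all members overlapped their controls except Pdlim3 and Pdlim7 in HHC against CCC, at 2.80 to 7.97% against 1.33 to 1.64% and 8.77 to 38.5% against 43.8 to 75.7%. In that pair the groups separated upward at 4.5% and downward at 9.4% of all loci.

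**Figure D5:**
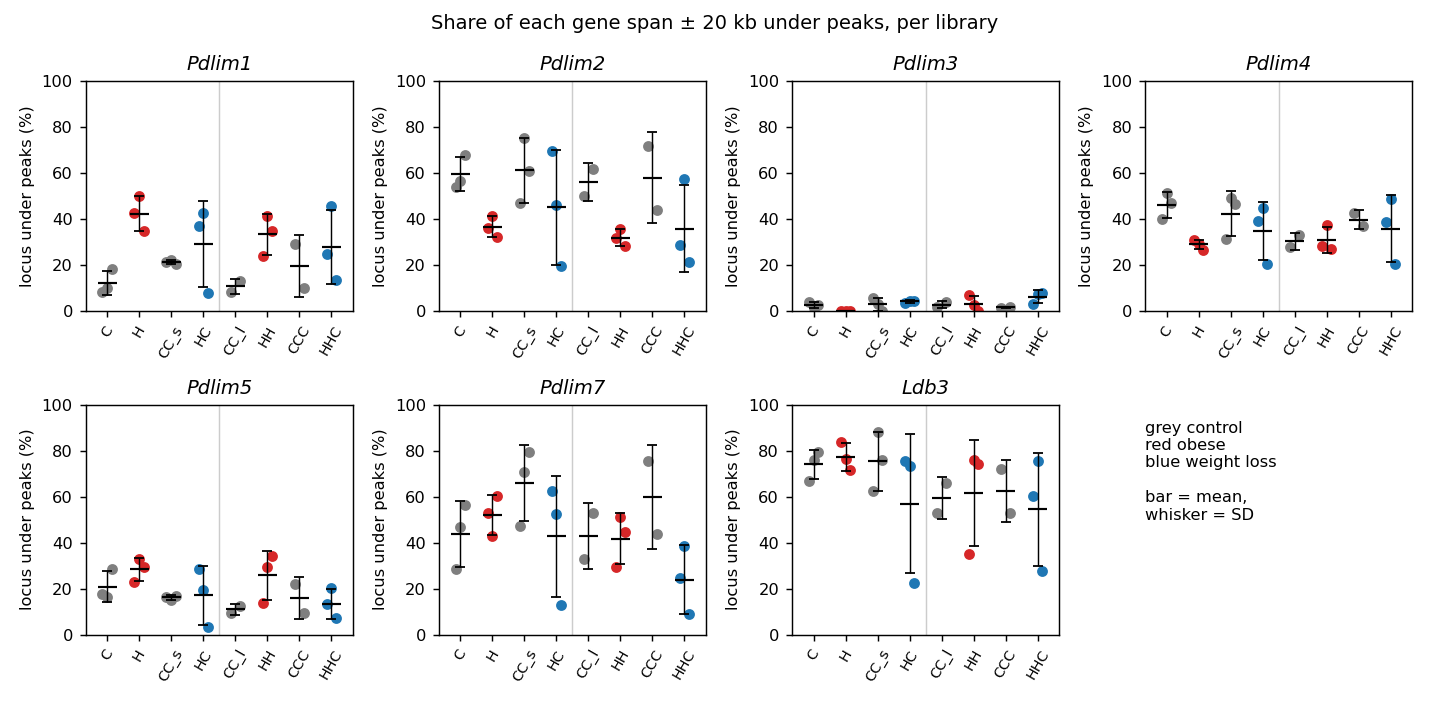
Percentage of each locus (gene span ± 20 kb) under peaks in each library of the 8 groups, with points for libraries, bars for means and whiskers for SD. Pdlim1 is at 8.22 to 18.1% in C and 34.5 to 50.1% in H, Pdlim2 at 54.0 to 67.8% and 32.2 to 41.4%, and Pdlim3 stays below 8%.

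The summed signal of whole loci was less clear-cut. No member was called in any of the 4 pairs by limma, although all 6 members tested had an unadjusted p under 0.05 in H against C. In that pair 31.3% of 17002 loci had such a p and 5.73% were called. At that p there were 0 of 7, 1 of 6 with Pdlim1 set aside and 0 of 7 members in HC against CC_s, HH against CC_l and HHC against CCC, where 9%, 12.1% and 4.04% of loci were at that p and 0%, 0.0058% and 0% were called. The Pdlim1 sum rose by 2.28 (SE 0.90, adjusted p = 0.14, limma), but its values were set by wide peaks reaching in from outside the locus: C replicate 1 had 17.01 and C replicate 3 had 21.06, and without C replicate 1 the difference was 1.17. Counting each peak only by its share inside the locus, an analysis added after the data were seen, Pdlim1 stood at 16.26 to 17.37 in C and 18.69 to 19.30 in H (difference 2.34, SE 0.31, adjusted p = 0.0061, limma). On the gene span alone Pdlim1 (2.80, SE 0.37, adjusted p = 0.015, limma) and Pdlim2, with the value given above, were both called in H against C, as were 4.18% of 14433 gene spans. Over both durations of obesity, in 1 fit with 4.76% of 17798 loci called, Pdlim5 was higher by 0.79 (SE 0.16, adjusted p = 0.010, limma), Pdlim7 was higher by 0.44 (SE 0.12, adjusted p = 0.040, limma) and Pdlim2 differed by -0.57 (SE 0.17, adjusted p = 0.048, limma), all under the size for a call. The Pdlim5 value was -0.087 for the maximum signal. Over both durations of weight loss no member passed in limma, with 0 of 7 at an unadjusted p under 0.05, where 13.4% of 18252 loci had such a p and 0.0438% were called. No difference between durations passed for either effect in limma. At an unadjusted p under 0.05 there were 0 of 6 members for the obese effect and 0 of 7 for the weight loss effect, against 5.03% and 1.35% of all loci.

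The partners of these proteins on actin gave a few calls in H against C. A list of 40 actin and LIM genes held 36 testable loci, of which 4 were called and all 4 were higher, against 5.73% of all loci. They included Palld, a scaffold of actin bundles (1.66, SE 0.19, adjusted p = 0.0089, limma), Fhl2, a LIM-only coactivator (1.28, SE 0.21, adjusted p = 0.019, limma), and Lims1, or PINCH, an adaptor of integrin adhesions (1.06, SE 0.18, adjusted p = 0.019, limma). The list's median difference was 0.26, against -0.01 over all loci. At promoters 2 of 31 were called, against 2.03% of all promoters. They were Synpo2 (2.09, SE 0.19, adjusted p = 0.0082, limma) and Nexn (1.32, SE 0.24, adjusted p = 0.048, limma), both actin-binding proteins. In HH against CC_l none was called by limma, and Palld (locus 1.46, SE 0.13, adjusted p = 0.059, limma) and Tpm1 (locus 1.94, SE 0.38, adjusted p = 0.15, limma), a tropomyosin, passed the looser rule, as 2.82% of loci did. At promoters Palld (1.76, SE 0.40, adjusted p = 0.35, limma) and Lims2 (1.53, SE 0.29, adjusted p = 0.27, limma), 2 of 33 tested, passed it, as 1.8% of promoters did. In the weight loss pairs none of the list was called or reached that threshold at loci or promoters. Mkl1 and Mkl2 were not found under those symbols.

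The loci whose summed signal was most like that of Pdlim1 over the 22 libraries, among 13679 loci with signal in all of them, were Lgi3 (Pearson's r = 0.87), Prkar2b (0.86), Rad18 (0.84), Dhdds (0.84) and Noc3l (0.84), of which Noc3l is also on chromosome 19. Prkar2b encodes a regulatory subunit of protein kinase A abundant in fat. Among the members r with Pdlim1 was 0.59 for Ldb3, 0.56 for Pdlim7, 0.55 for Pdlim5, -0.18 for Pdlim4 and -0.43 for Pdlim2. These values share libraries, groups and peak calling, and the Pdlim1 sum holds peaks that reach beyond the locus, so they are a description over libraries that fall into groups.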

How the data were processed

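ATAC-seq peaks of 22 libraries from 8 groups were analysed. Per the labels and the study's methods, the authors trimmed reads with Trim Galore 0.6.6, aligned them to GRCm38 (mm10) with Bowtie2 2.4.4, processed alignments with SAMtools 1.13 and bedtools 2.30, and called peaks per library with SEACR 1.3 in stringent mode. The deposited values are the total and the maximum signal of each peak, with no normalization stated; because peaks below each library's threshold are not listed, wide, shallow opening and depth both change what is covered. The mitochondrial peak, 1 per library, was not used.

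Peaks of all libraries were merged where they shared 1 bp. Total signal was summed per region, per locus (gene span ± 20 kb, GENCODE annotation) and per promoter (start sites ± 2 kb), and replaced rank by rank with the mean log2 value of that rank over libraries, using the 30083 ranks present in every library for regions. Signal scaled to ppm was used as an alternative with a pseudocount of 1. Each pair was fitted with limma 3.58.1 in R 4.3.3 (trend, keeping features that exceeded the floor in n or more libraries of the pair, with n the size of its smaller group), with Benjamini-Hochberg adjustment over all features; the fit was tested on simulated data. Covered share was tested in percentage points with no size threshold at the unadjusted p of 0.01. Tables and sequences were handled with Python 3.11.15, pandas 2.3.3 and pysam 0.24.0. Alternatives were another scaling, the maximum signal, the 30000 strongest peaks, another filter, no trend, all 8 groups in 1 fit, a replicate block, other flanks, a 50% overlap and leaving out each replicate.

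The members and the gene lists were chosen with earlier results of these data known. Named regions were the promoter region of each member, every region called or past p under 0.01 with a difference over 1 in any pair, and otherwise the region of smallest p; the loci most like Pdlim1 were the 5 of highest Pearson's r. Pdlim5 region 12, Ldb3 region 2 and the frequent Pdlim3 peak were named after their values were seen. Recurring summits were those within 300 bp of each other in at least 4 libraries. Protein sequences were not used here. Results on some genes are not reported here.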

Additional observations from a re-analysis of the deposited data

Results flagged for a closer look

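Region 4 of Pdlim3, in the flank at Ccdc110, was flagged because weight loss and control libraries separated in opposite directions in the short and the long arm. The 3 HC libraries (14.39, 14.34 and 14.82) all lay above the 3 CC_s libraries (14.17, 14.01 and 14.01), a difference of 0.45, and the 3 HHC libraries (14.01, 14.03 and 14.01) all lay below the 2 CCC libraries (14.16 and 14.06), a difference of -0.09. The floor is 14.01, and the difference between the arms was not tested at this region. For groups of this size no library was examined for standing far from its group.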

How the results depend on the processing

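The replicate numbers did not pair the samples: same-numbered libraries correlated in their deviations from the group means at -0.18 to 0.19. With a replicate block by these numbers, no call on the counts of loci, promoters or covered shares changed, and the count of called member regions in H against C was 4 in place of 3, where 7.82% of all regions were called in place of 8.28%. Of 19 member values past a threshold, 2 changed sign in 255 refits, both for the maximum signal: the Pdlim1 promoter in HHC against CCC (-0.44) and the Pdlim5 locus in obesity over both durations (-0.087). The Pdlim1 gene body region in HHC against CCC, not called, also changed sign for the maximum (-0.16). Of 171 values past no threshold, 101 changed sign in at least 1 refit. The cause was not tested.

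Called regions of the 7 loci in H against C numbered 3, and 1 with the filter of 1 library above the floor (2.63% of all regions), 5 among the 30000 strongest peaks (6.58%) and 0 to 3 when a replicate was left out (0.43% to 7.55%). The Pdlim1 region difference was 2.96 to 3.61 when a replicate was left out (not called without C replicate 2), and in HH against CC_l it was 0.96 for the maximum and 2.36 among the 30000 strongest peaks. In HH against CC_l 1 region was called with ppm-scaled signal, where 6.86% of all regions were, and in HHC against CCC 0 to 1 when a replicate was left out (1 without CCC replicate 1, where 0.219% of all regions were called, Pdlim5 region 10, above the floor in CCC alone and with the lone CCC library assumed to vary like HHC), against 0 in both. For H against C, where no locus, promoter or covered share was called, locus calls were 1 for the maximum (1.99% of all loci), 1 among the 30000 strongest peaks (6%), 1 with peaks clipped to the locus (6.29%, added after seeing the data) and 2 with no flank (4.18%). Promoter calls were 2 with all 8 groups in 1 fit (1.1% of all promoters), 1 for the maximum (1.36%), 1 among the 30000 strongest peaks (2.06%) and 0 to 1 when a replicate was left out (1 without C replicate 3, with 1.35%, or H replicate 3, with 2.13%). Covered share calls were 1 among the 30000 strongest peaks (2.29% of all loci) and 1 with no flank (0.842%). With 50% of the region covered, the Pdlim1 gene body region could not be tested.

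The files do not give the depth of a library. Groups of 2 in the long arm and weak peaks in HC replicate 3 and HHC replicate 3 limit the weight loss comparisons.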
